A study of Rattus norvegicus with 21 samples.

Results

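Liver labelled as normal, from rats with a growing bile duct cancer, was compared between day 15 and day 10 after inoculation of the tumour cells. The comparison holds 3 normal right liver lobes taken at day 15 and 3 taken at day 10, from 6 different rats, out of 21 arrays from 9 rats in the whole series. All 6 animals were male, young adult Fischer 344 rats that carried a BDEneu tumour, labelled as intrahepatic cholangiocarcinoma, so the day 10 livers are tumour-bearing livers too and no liver of an uninoculated rat was analysed here. BDEneu is a rat bile duct epithelial cell line transformed with the oncogene neu, the rat form of Erbb2, and the model therefore rests on 1 transformed line grown in its strain of origin. Each lobe was snap-frozen, and its total RNA was hybridised to an Affymetrix expression array. Levels are log2 values on which 1 unit is a doubling, with 1 probe set for each of 14217 genes.

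The liver makes most proteins of blood plasma, and it makes and exports cholesterol, clears drugs, keeps blood glucose and detoxifies ammonia. It answers signals from injured tissue and from macrophages by raising acute phase proteins, and its male pattern of cytochromes depends on the pulses of growth hormone.

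The 6 lobes carried the labelled identity. Alb, which encodes albumin, lay between 14.56 and 14.62 in all 6 livers, and Cps1, the first enzyme of the urea cycle, between 12.78 and 13.27 against 10.02 to 12.18 in the 6 paired tumours. Erbb2, the receptor that drives the tumour line, read 5.61, 5.27 and 5.39 in the day 10 livers and 5.16, 5.57 and 5.11 in the day 15 livers, against 8.72 to 10.02 in the tumours of the same rats. The lobes of both days stood more than 3 units below the tumours for Erbb2 and did not separate from each other. The bile duct keratin Krt19 was between 4.86 and 5.42 in the day 10 livers and between 5.73 and 6.46 in the day 15 livers, against 11.70 to 12.61 in the tumours. Postn, the matrix protein periostin of tumour stroma, lay between 4.08 and 5.31 in the day 10 livers and at 4.42, 7.24 and 4.51 in those of day 15, so replicate 2 of day 15 was the highest.

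The 3 livers of day 15 did not form 1 group. Over all genes, the 3 day 10 livers correlated with each other at 0.991 to 0.992 (Pearson's r across genes, which are not independent replicates). Day 15 replicates 1 and 3 correlated at 0.991 with each other and at 0.978 to 0.985 with the day 10 livers. Day 15 replicate 2 correlated at 0.988 to 0.99 with the day 10 livers but at 0.979 with both other day 15 livers. In 30 of the 42 gene lists described here, replicate 2 was the day 15 liver whose mean level lay nearest to the day 10 mean. Values without this liver are given below for genes and lists that it moves. They are descriptive, since the liver was singled out on these same data.

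**Figure D1:**
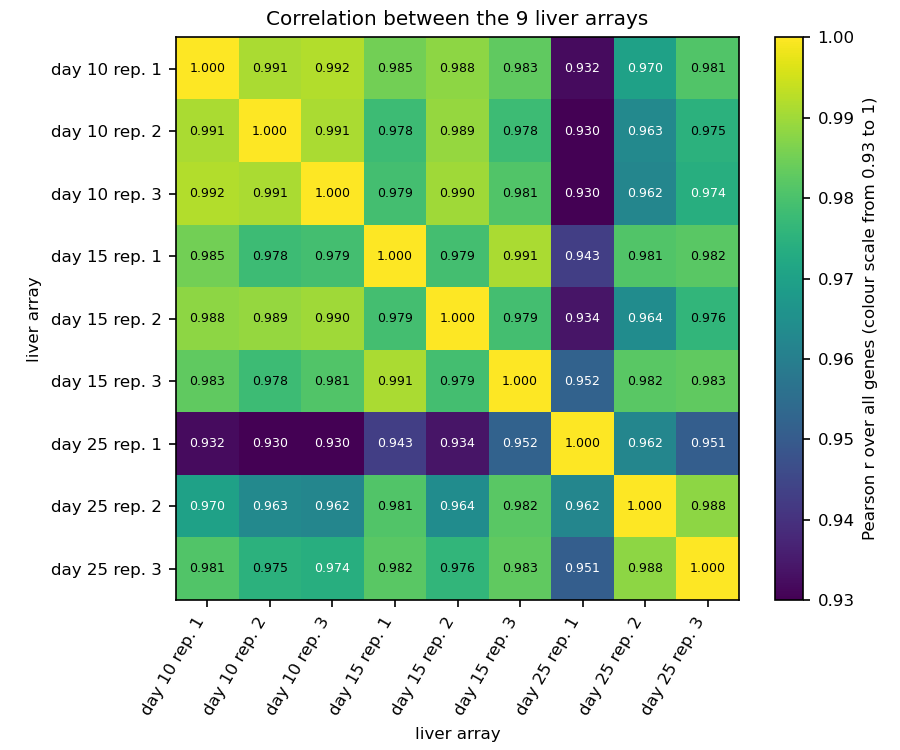
Pearson correlation over 14217 genes between each pair of the 9 liver arrays, written in each cell; rows and columns are arrays and the colour scale runs from 0.93 to 1. Day 15 replicate 2 shows 0.979 with the other day 15 livers and at least 0.988 with each day 10 liver.

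Between the days, 3 genes rose (0.0211% of those tested) and 1 fell (0.00703%) at an adjusted p under 0.05 (limma, Benjamini-Hochberg over 14217 genes), 0.0281% in all. An unadjusted p under 0.05 was reached by 1438 genes (10.1%), of which 856 (6.02%) were higher and 582 (4.09%) lower at day 15. In 2585 genes (18.2%), all 3 day 15 arrays lay on 1 side of all 3 day 10 arrays: 1565 genes (11%) were higher in this sense and 1020 (7.17%) lower. The median difference over all genes was 0.01. The replicates are different rats, so the spread holds animal, dissection and array differences together.

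The gene that fell was Idh2, the mitochondrial isocitrate dehydrogenase that makes NADPH. Idh2 read 9.95, 9.94 and 9.88 at day 10 and 8.94, 9.26 and 8.99 at day 15. The day 10 livers lay within 0.07 units of one another, and every day 15 liver was lower. The difference was -0.86 (SE 0.13, 95% interval -1.12 to -0.59, adjusted p = 0.049 by limma, n = 3 and 3), a ratio of 0.552. At day 25 Idh2 was at 9.37, 9.86 and 9.27, between the other days in mean, and in the tumours it averaged 10.26 at day 10 and 10.18 at day 15.

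St3gal4, a sialyltransferase that caps glycans on glycoproteins, rose. Its levels were 6.96, 6.76 and 6.76 at day 10 and 7.64, 7.53 and 7.44 at day 15, without overlap. The difference was 0.71 (SE 0.12, 1.64-fold, adjusted p = 0.0492 by limma, n = 3 and 3), and a further probe set of St3gal4 differed by 0.35. At day 25 St3gal4 was at 7.70, 8.10 and 8.04, so all 6 later livers stood above all 3 early ones.

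Nectin2, a cell adhesion molecule of epithelial junctions and a ligand of lymphocyte receptors, rose on the probe set that stands for it. Nectin2 read 8.07, 7.78 and 7.60 at day 10 and 8.71, 8.61 and 8.71 at day 15, a difference of 0.86 (SE 0.14, adjusted p = 0.0492 by limma, n = 3 and 3). At day 25 it was back at 8.10, 7.88 and 7.67 and from day 15 it fell by 0.79 (adjusted p = 0.00722, limma). The other probe sets of Nectin2 do not carry this change, with differences of -0.20 at a like level and -0.08. The last gene that rose, LOC100909739, has only a provisional name; its levels were 4.63, 4.53 and 4.82 at day 10 and 5.30, 5.28 and 5.49 at day 15. All 4 genes lost the call when any 1 of the day 10 livers or day 15 replicates 1 or 3 was left out, when 0 genes remained called, and all 4 kept it without day 15 replicate 2.

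Below the threshold, 10 more genes with higher and 11 with lower levels were named by a rule of smallest p among genes whose arrays did not overlap. Among the higher ones, Sox4, a transcription factor of progenitor and tumour cells, read 5.89, 5.94 and 6.08 at day 10 and 7.45, 7.16 and 7.15 at day 15 (adjusted p = 0.12, limma). A further probe set of Sox4 at a like level differed by 0.31 and 5 others by -0.11 to -0.03. S100a11, a calcium-binding protein, was at 8.39, 8.40 and 7.91 and then at 9.51, 9.07 and 9.60. Fxyd5, a regulator of the sodium pump, was at 6.17, 6.57 and 6.22 and then at 7.96, 6.82 and 7.47, with replicate 2 the lowest of the day 15 livers.

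Ier5, an immediate early gene, was at 7.29, 6.90 and 6.52 at day 10 and at 8.41, 7.58 and 8.20 at day 15, and its adjusted p of 0.077 (limma) lay nearest to the threshold among the higher genes beyond those called, with Kdm2b, a histone demethylase, at the same value. The remaining higher genes were Ambra1, an autophagy regulator, the ubiquitin ligase Rnf145, Tulp3, Pdlim7 and Hspa4l, a chaperone. Of the 12 higher genes, 11 (91.7%) had a higher mean in the day 10 tumours than in the day 10 livers, against 48.1% of all genes. The median difference over the 12 was 2.27 units. Of the 12 lower genes 1 (8.33%) was higher in the tumours, with a median of -0.61. The day 10 liver values also entered the choice of these genes. The part of tumour RNA in these differences was not tested. Further probe sets of Rnf145, Ambra1, Tulp3 and Pdlim7 differed by -0.04, -0.24, -0.08 and -0.27, and those of Ier5, all dimmer, by -0.17 and 0.35.

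Among the lower genes, Nox4, an NADPH oxidase that makes hydrogen peroxide, differed most. It read 6.94, 7.04 and 7.20 at day 10, 5.33, 6.50 and 4.67 at day 15 and 4.16, 4.15 and 4.64 at day 25. The day 15 livers thus lay between the other days, with replicate 2 closest to day 10, and the difference from day 10 was -1.56 (SE 0.30, adjusted p = 0.12, limma). Furin, the protease that cleaves proproteins in the secretory pathway, read 10.22, 10.18 and 10.26 at day 10 and 9.84, 9.60 and 9.83 at day 15, with replicate 2 the lowest here. Ptms, which encodes parathymosin, was at 11.62, 11.44 and 11.42 and then at 10.97, 10.83 and 10.71. The others were Cacnb2, Tpbpa, Bcl2l14, Abcc8, Ptf1a, Cln3, Tmem151a and Agfg2, of which Cln3, a lysosomal membrane protein, differed by -0.43, -0.39 and -0.47 on its 3 probe sets.

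**Figure D2:**
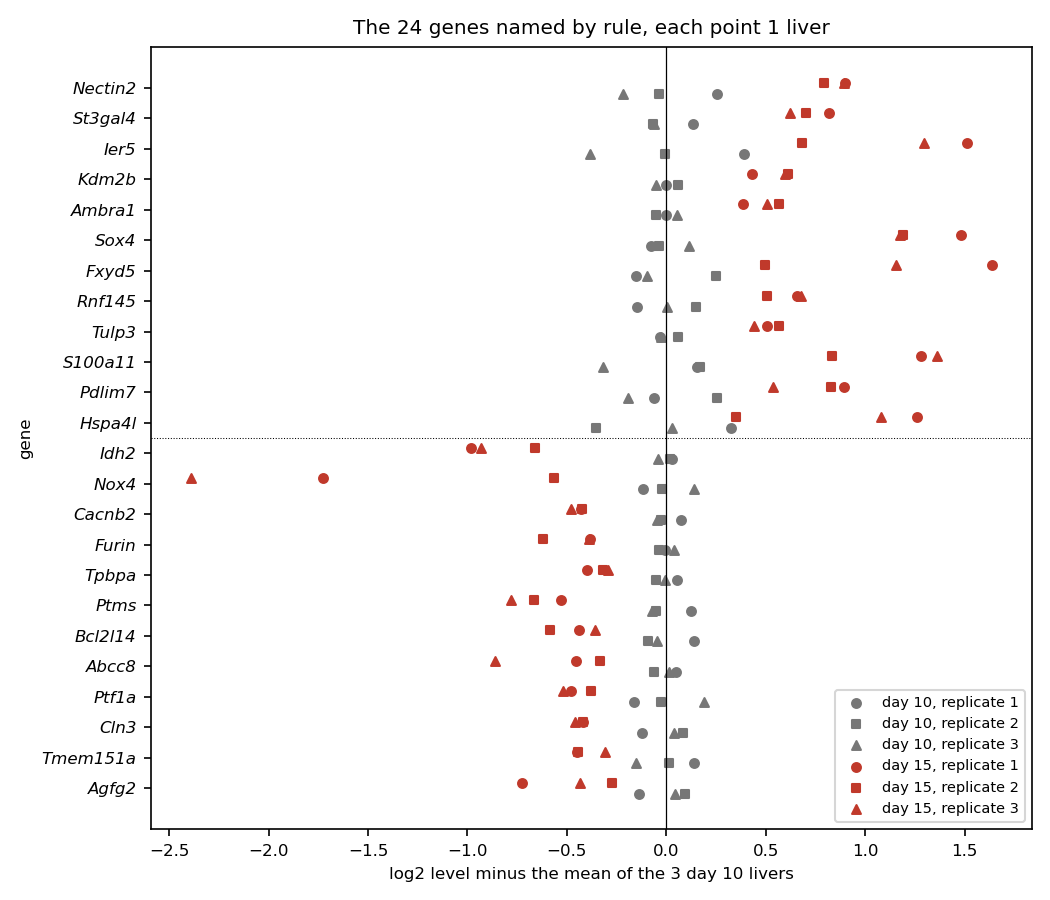
Level of each of the 24 rule-named genes (rows) in the 3 day 10 livers (grey) and the 3 day 15 livers (red), as log2 level minus the day 10 mean; each point is 1 liver and its shape the replicate. All 24 were chosen for groups that do not overlap; day 15 replicate 2 (squares) lies nearest to day 10 in Nox4, Fxyd5 and Ier5, and lowest in Furin.

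Gene lists are described by their counts, since 0 members of any of the 42 lists passed the adjusted threshold. The list with the highest share of higher members was cholesterol synthesis and uptake. The pathway builds cholesterol from acetyl units through mevalonate and squalene. Sterol-regulated factors of the Srebf family switch its genes together when the sterol content of the cell drops. In 13 of 20 measured members (65%) all day 15 livers were above all day 10 livers, against 11% of all genes, and 0 were below. The median difference was 0.35, and 5 members were higher at an unadjusted p under 0.05 (limma), against 6.02% of all genes.

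Sqle, squalene epoxidase, which commits squalene to sterols, read 7.91, 7.05 and 7.36 at day 10 and 9.46, 8.18 and 9.29 at day 15. The groups did not overlap, and replicate 2 was the lowest of day 15. The difference was 1.54 (SE 0.43, adjusted p = 0.24, limma), and without day 15 replicate 2 it was 1.94 with an adjusted p of 0.0438. Msmo1, which removes methyl groups from sterol precursors, was at 10.13, 9.23 and 9.75 and then at 10.94, 10.24 and 10.77 (difference 0.95, adjusted p = 0.31). Insig1, which helps to hold the Srebf factors in the endoplasmic reticulum, was at 11.48, 11.66 and 11.77 and then at 12.26, 12.14 and 12.41.

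Idi1, Lss and Mvd, chosen after their values were seen, also had an unadjusted p under 0.05. Idi1, which isomerises the isoprenoid unit, differed by 0.96 and on a further probe set by 0.89, Lss, which closes the sterol rings, by 0.75 and 0.51, and Mvd, the last mevalonate enzyme, by 0.60. Members that did not share the direction were Insig2, at 11.38, 11.71 and 11.95 and then 10.73, 11.65 and 10.56, and Nsdhl, with a difference of -0.08. Srebf2, a sterol-regulated factor of the Srebf family, lay between 8.77 and 8.97 in all 6 livers.

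By day 25 the mean level of the list lay below the day 10 mean in all 3 livers, by -0.78, -0.73 and -0.35. The median difference of its members from day 15 to day 25 was -1.09, and 8 of 20 fell at an adjusted p under 0.05 (limma), where 1.38% of all genes fell. Lss, for example, was at 7.17, 8.19 and 8.74 at day 25. In the tumours the median difference of the same members from day 10 to day 15 was -0.29.

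Because 13 members were higher without overlap, the 250 bases upstream of the RefSeq start (build GRCr8, strand of the gene) are shown for the 4 members of smallest p that have an entry among the promoters used here. Capitals mark CCAAT, or ATTGG where it lies on the other strand, the letters of the box that nuclear factor Y binds beside sterol elements in many of these genes. Sqle and Fdft1 are named only.
Msmo1, chr16:29746863-29747112, plus strand: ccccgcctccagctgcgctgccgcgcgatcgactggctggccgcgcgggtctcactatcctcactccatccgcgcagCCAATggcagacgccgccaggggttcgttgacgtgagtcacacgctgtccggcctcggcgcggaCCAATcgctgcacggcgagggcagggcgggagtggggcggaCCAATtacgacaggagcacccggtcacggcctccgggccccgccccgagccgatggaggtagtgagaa
Idi1, chr17:66547525-66547774, minus strand: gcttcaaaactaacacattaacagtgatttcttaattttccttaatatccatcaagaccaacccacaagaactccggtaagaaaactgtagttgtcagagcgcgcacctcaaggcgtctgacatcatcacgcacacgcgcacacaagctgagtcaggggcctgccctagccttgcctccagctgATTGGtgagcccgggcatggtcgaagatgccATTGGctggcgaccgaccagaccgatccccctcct
Lss, chr20:12118231-12118480, minus strand: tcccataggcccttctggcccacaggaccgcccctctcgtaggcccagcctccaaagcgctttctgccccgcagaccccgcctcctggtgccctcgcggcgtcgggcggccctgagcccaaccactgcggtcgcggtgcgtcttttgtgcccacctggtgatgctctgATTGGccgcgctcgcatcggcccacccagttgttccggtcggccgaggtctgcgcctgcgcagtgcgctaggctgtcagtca
Mvd, chr19:67414975-67415224, minus strand: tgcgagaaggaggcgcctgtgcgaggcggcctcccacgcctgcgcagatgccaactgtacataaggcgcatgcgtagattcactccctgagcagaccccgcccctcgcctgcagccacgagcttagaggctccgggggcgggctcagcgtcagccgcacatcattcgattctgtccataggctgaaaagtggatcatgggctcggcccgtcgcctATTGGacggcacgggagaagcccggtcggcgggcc
The Msmo1 window holds 3 such boxes, the Idi1 window 2, and those of Lss and Mvd 1 each. On either strand, CCAAT was found in 13 of the 16 list members with an entry, against 34.0% of all 33469 promoter windows of this length. The 13 include Nsdhl, Insig2 and Srebf2, whose day 15 and day 10 livers overlapped. TCACNCCA is a core of the sterol element, and its closing CCA can also open a CCAAT. TCACNCCA was found in Msmo1 and Srebf2 alone among the 16, against 3.24% of all windows. A match is a run of letters and not a shown binding site.

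The respiratory chain lay lower at day 15 by small amounts. The chain passes electrons from NADH and succinate to oxygen in mitochondria and drives ATP synthesis. All 37 measured members had a mean below day 10, as had 6708 of all 14217 genes, with a median difference of -0.15. In 18 of them (48.6%) all day 15 arrays lay below all day 10 arrays, against 7.17% of all genes. At an unadjusted p under 0.05 (limma) 9 were lower, against 4.09% of all genes. Cox8a, a subunit of cytochrome c oxidase, read 12.41, 12.41 and 12.31 at day 10 and 12.14, 12.03 and 12.08 at day 15 (adjusted p = 0.32, limma). Atp5f1b, the catalytic beta subunit of ATP synthase, was at 12.91, 12.81 and 12.87 and then at 12.69, 12.79 and 12.73. Cox5a had the widest difference, -0.84, but its levels of 8.24, 8.29 and 7.27 at day 10 and 7.41, 7.11 and 6.76 at day 15 overlapped. Without day 15 replicate 2 the list's median was -0.18, and replicate 2 itself lay 0.12 below the day 10 mean, so all 3 day 15 livers were on the same side.

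**Figure D3:**
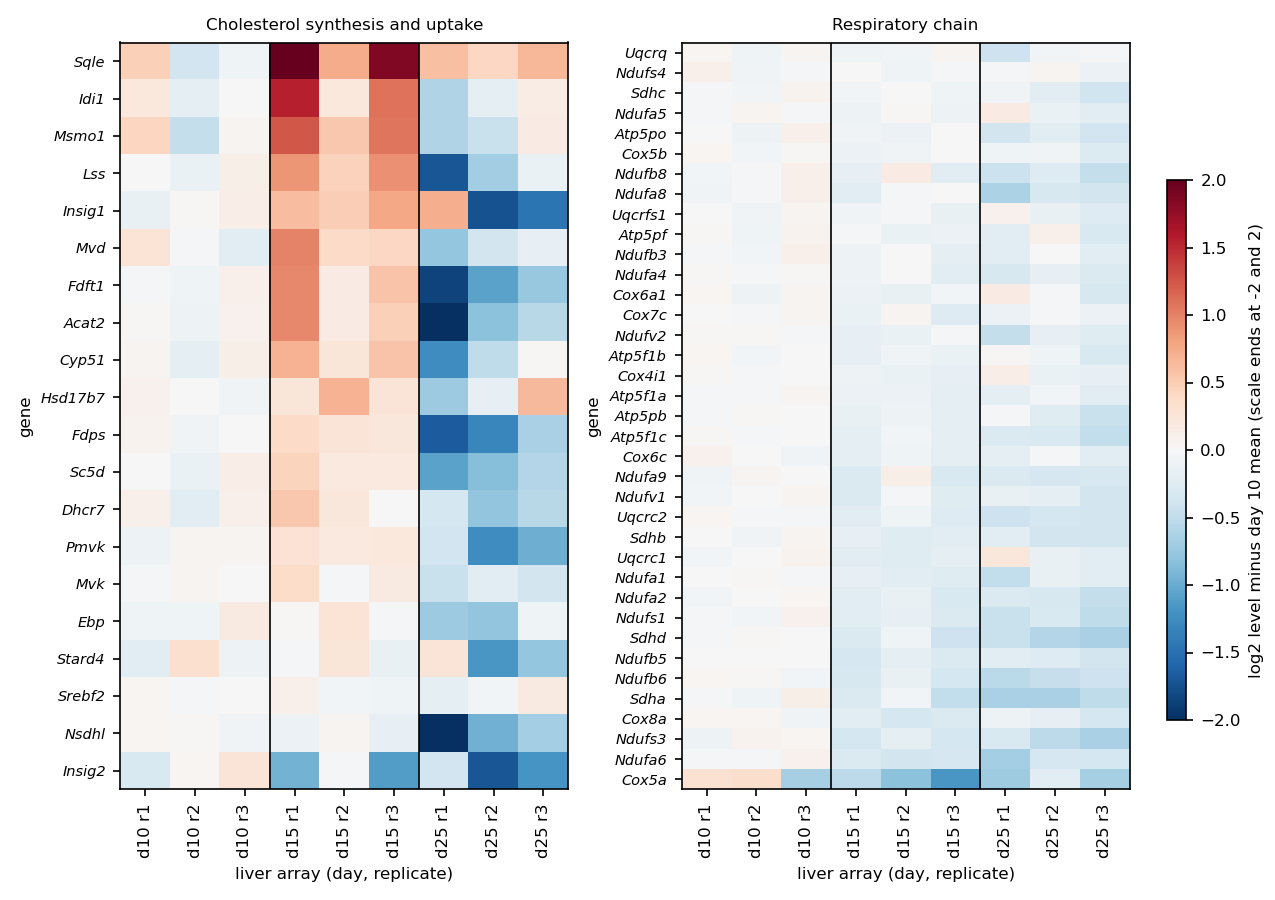
Each row is a member of the cholesterol list (left, 20 genes) or the respiratory chain list (right, 37 genes), each column 1 of the 9 livers, and the colour the log2 level minus the day 10 mean, from -2 to 2. In 13 of 20 cholesterol genes every day 15 liver is above every day 10 liver, and the list's median difference from day 15 to day 25 is -1.09, while the respiratory chain is paler, with a median of -0.15 at day 15.

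Most genes of the macrophage lists were higher at day 15, and here replicate 2 did not lie nearest to day 10. Kupffer cells are the resident macrophages of liver sinusoids, and damaged liver also draws in macrophages from blood. Among 15 recruited macrophage genes, 9 (60%) were above day 10 in every day 15 liver, and among 10 Kupffer cell genes 5 (50%) were, both against 11% of all genes, with medians of 0.38 and 0.39. Of the 15 recruited macrophage genes 2 had a mean below day 10, and the lowest difference was -0.74. At an unadjusted p under 0.05 (limma) 7 of the 15 were higher and 1 lower, against 6.02% and 4.09% of all genes. Mmp12, the macrophage elastase, read 5.47, 6.11 and 5.54 at day 10 and 6.89, 7.99 and 6.95 at day 15, highest in replicate 2. The difference in Mmp12 was 1.57 (SE 0.33, adjusted p = 0.12, limma), and from there to day 25 it fell by 1.51 (adjusted p = 0.027, limma). Gpnmb, a glycoprotein of lipid-laden and scar-associated macrophages, was at 8.78, 8.89 and 8.94 and then at 9.80, 9.81 and 9.83. In Gpnmb the 3 day 15 livers lay within 0.03 units of each other, nearly 1 unit above day 10.

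Lyz2, macrophage lysozyme, was at 10.65, 10.50 and 10.80 and then at 11.06, 11.24 and 11.01. Cd68, a lysosomal protein of macrophages, was at 8.63, 8.50 and 8.84 and then at 8.91, 9.10 and 9.26, and C1qb, a chain of complement C1q that Kupffer cells make, at 9.64, 9.77 and 10.06 and then at 10.21, 10.21 and 10.63. On the linear scale the summed signal of the 10 Kupffer genes ranged from 7810 to 9580 at day 10 and from 9964 to 13522 at day 15. In bulk tissue, more or fewer cells of a type and more or less RNA per cell cannot be told apart.

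The list of MHC class II genes, which show peptides to helper T cells, and of dendritic cell genes also had higher members. Of 14 measured members 5 were higher without overlap (35.7%, against 11% of all genes), with a median of 0.31. RT1-Bb, a class II beta chain, was at 9.63, 9.91 and 9.79 and then at 10.74, 10.25 and 10.97, and Cd74, the invariant chain, at 10.52, 10.79 and 10.66 and then at 11.52, 10.94 and 11.81. Replicate 2 was the lowest of day 15 in both, yet above day 10. The median difference from day 15 to day 25 was -0.29, against 0.42 for the Kupffer cell list. T and NK cell genes did not share this: 0 of 19 were higher without overlap and the median was -0.04, or -0.09 without day 15 replicate 2.

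Bile duct and tumour line markers were also higher, in part. Among 18 genes, 4 (22.2%, against 11% of all genes) were above day 10 in every day 15 liver and 1 (5.56%, against 7.17%) was below. The median was 0.52, and 6 were higher at an unadjusted p under 0.05 (limma), against 6.02% of all genes. Tspan8, a tetraspanin of epithelia and carcinomas, read 5.67, 6.04 and 5.29 at day 10 and 7.31, 7.01 and 7.66 at day 15 (difference 1.66, adjusted p = 0.12, limma). Spp1, osteopontin, a secreted protein of bile duct cells and macrophages, was at 6.69, 6.59 and 6.78 and then at 7.04, 9.24 and 7.47, with replicate 2 far above the others. Krt18, a keratin that hepatocytes also make, was at 11.32, 10.63 and 10.85 and then between 10.86 and 12.05, with replicate 2 the lowest and overlapping day 10. The summed linear signal of the 18 genes ran from 4034 to 5339 at day 10 and from 4909 to 9853 at day 15. Among them Erbb2, the defining gene of the line, differed by -0.15, and Krt19, given above, was higher without overlap. The part of tumour or duct cells in this list and the other lists was not tested.

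Matrix and stellate cell genes had 7 of 24 members (29.2%) higher without overlap, against 11% of all genes, and a median of 0.38. The mean level of the list overlapped between the days, since day 10 replicate 2 lay 0.35 above the day 10 mean and the day 15 livers 0.62, 0.38 and 0.28 above it. Timp1, an inhibitor of matrix proteases, was at 7.50, 7.77 and 7.32 and then at 8.82, 8.10 and 8.31, and Loxl1, which cross-links elastin, at 6.39, 6.72 and 6.14 and then at 6.92, 6.80 and 6.85. Fn1, fibronectin, which hepatocytes secrete in bulk, lay between 13.15 and 13.33 in all 6 livers. Hepatocyte markers, in turn, had 1 of 17 members lower without overlap (5.88%, against 7.17% of all genes) and a median of -0.14, which was -0.26 without day 15 replicate 2.

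Red blood cell genes were lower. Of 8 measured, 4 (50%) were below day 10 in every day 15 liver, against 7.17% of all genes. Hbb, a beta globin, read 11.98, 12.03 and 12.14 at day 10, 11.10, 11.58 and 10.68 at day 15 and 12.35, 11.99 and 11.79 at day 25. Alas2, the first enzyme of haem synthesis in red cells, was at 8.00, 7.93 and 7.72 and then at 6.77, 7.16 and 6.24, and Hba-a3, an alpha globin, at 9.74, 9.86 and 9.84 and then at 9.27, 9.19 and 8.92. Their adjusted p-values by limma were 0.36, 0.31 and 0.31 respectively. The part of the blood content of the lobes in these values was not tested.

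Heat shock genes, which encode chaperones, had 8 of 18 members (44.4%, against 11% of all genes) higher without overlap, with a median of 0.17. Hspa4l was at 5.49, 4.81 and 5.19 at day 10, 6.43, 5.51 and 6.24 at day 15 and 5.08, 4.98 and 4.90 at day 25, and between the later days it fell by 1.08 (adjusted p = 0.00718, limma). Hsp90ab1, the constitutive cytosolic Hsp90, was at 11.76, 11.76 and 11.82 and then at 12.27, 11.83 and 12.33, with replicate 2 barely above day 10. RNA splicing and processing had 11 of 30 members (36.7%, against 11% of all genes) higher without overlap, but 1 of 30 was higher at an unadjusted p under 0.05, where 6.02% of all genes were. The 11 include Hnrnpc, a packaging protein of new transcripts, at 9.75, 9.54 and 9.71 and then at 10.17, 9.99 and 9.87.

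Proteasome subunits form the protease that digests ubiquitin-tagged proteins. Of 30 members 29 were above the day 10 mean, as were 7509 of all 14217 genes. Without overlap 9 (30%, against 11% of all genes) were higher, and the median was 0.16. Psmc4, an ATPase of the cap, was at 9.86, 9.73 and 10.01 and then at 10.13, 10.10 and 10.09. Between day 15 and day 25, 5 of the 30 subunits fell at an adjusted p under 0.05 (limma), where 1.38% of all genes fell. Ribosomal protein genes had a median of 0.18, and 0.32 without day 15 replicate 2, but 1 of 22 members higher without overlap (4.55%, against 11%). Rps16 was at 11.79, 11.55 and 11.70 and then at 12.21, 11.77 and 12.23, so replicates 1 and 3 were above day 10 and replicate 2 was within its range.

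**Figure D4:**
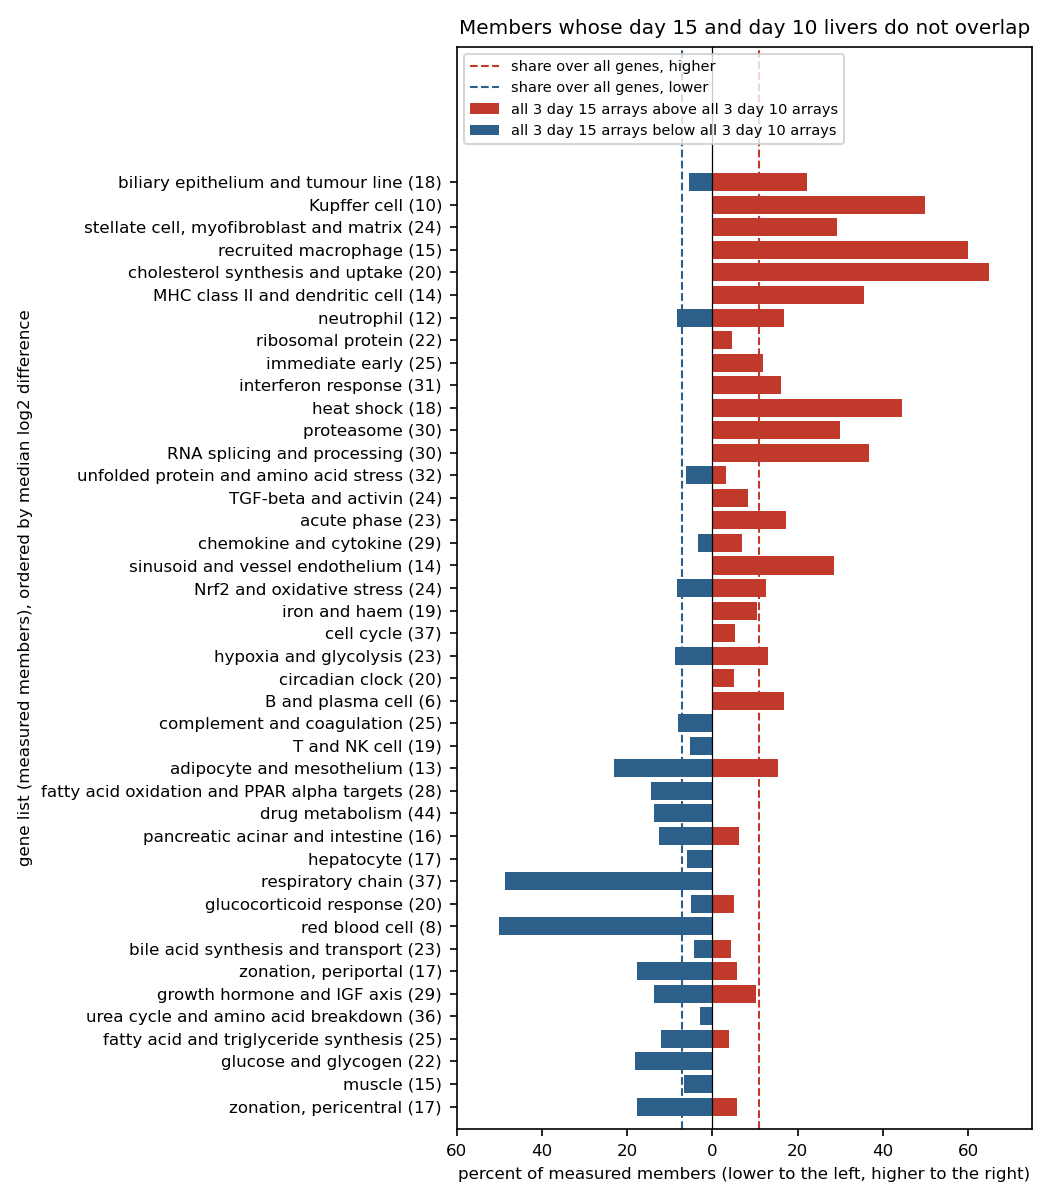
For each of the 42 gene lists (rows, ordered by median log2 difference, with the number of measured members), the percent of members whose 3 day 15 livers all lie above (red, right) or below (blue, left) all 3 day 10 livers. Dashed lines mark the shares over all 14217 genes, 11% higher and 7.17% lower; cholesterol synthesis reaches 65% higher and the respiratory chain 48.6% lower.

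Growth hormone shapes male and female patterns of liver genes in rats, and both patterns were looked at. Over 29 measured members the list was mixed, with 3 members higher without overlap (10.3%, against 11% of all genes), 4 lower (13.8%, against 7.17%) and a median of -0.23. Trim24, a transcriptional coregulator, read 6.38, 6.19 and 6.03 at day 10 and 7.40, 6.93 and 7.96 at day 15 (difference 1.23, SE 0.27, adjusted p = 0.12, limma). Cux2, a repressor typical of female liver, was at 4.43, 4.44 and 4.41 at day 10, 4.69, 4.60 and 4.83 at day 15 and 5.70, 5.76 and 5.96 at day 25. Cux2 was thus low on the array's scale but ordered by day without overlap, and it rose by 1.10 from day 15 to day 25 (adjusted p = 9.8e-06, limma).

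Cyp2c12, the female-specific cytochrome, was at 9.56, 7.05 and 8.86 in these male rats at day 10 and at 11.89, 8.90 and 12.50 at day 15. Replicates 1 and 3 were above every day 10 liver and replicate 2 was within their range, and the difference of 2.61 (SE 1.01) had an adjusted p of 0.39 (limma). Cyp2c11, its male counterpart, was at 13.35, 13.57 and 13.53 and then at 12.52, 13.45 and 11.61. The genes share sequence, so signal of near-identical family members on a probe set cannot be told apart. Obp3, a male urinary carrier protein, was at 13.13, 13.51 and 13.44, then at 11.56, 13.34 and 11.56, and at day 25 at 6.07, 5.23 and 10.89.

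Slco1a1, an uptake transporter of male liver, was at 9.49, 9.67 and 9.82 and then at 7.94, 9.58 and 8.34. Hsd3b5, a male steroid enzyme, was at 12.20, 12.28 and 12.30 and then at 11.56, 12.14 and 11.62, below day 10 in every liver. In Obp3, Slco1a1 and Cyp2c11 replicate 2 kept the day 10 level while replicates 1 and 3 were lower. Igf1, the main circulating product of growth hormone action, lay between 13.05 and 13.38 in all 6 livers. Igfbp4, a binding protein of that factor, was at 12.13, 12.05 and 11.25 and then at 11.01, 10.12 and 10.75, lowest in replicate 2 (adjusted p = 0.34, limma).

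Several metabolic lists had medians below 0. The glucose and glycogen list had 4 of 22 members (18.2%, against 7.17% of all genes) lower without overlap and a median of -0.27. Slc37a4, which carries glucose 6-phosphate into the endoplasmic reticulum, was at 10.93, 11.06 and 11.17 and then at 10.11, 10.73 and 10.04. Irs1, a docking protein of the insulin receptor, was at 5.20, 5.33 and 5.51 and then at 4.42, 5.24 and 4.50, with overlap in replicate 2. Among fatty acid oxidation genes 4 of 28 (14.3%, against 7.17% of all genes) were lower without overlap. At an unadjusted p under 0.05 (limma) 1 of the 28 was lower, against 4.09% of all genes. Cpt1a, the gate of mitochondrial import, was at 10.39, 10.73 and 10.67 and then at 9.14, 10.35 and 9.18. Urea cycle and amino acid breakdown had 32 of 36 members below the day 10 mean, as had 6708 of all 14217 genes, but 1 lower without overlap (2.78%, against 7.17%). Its median was -0.25, and -0.41 without day 15 replicate 2. Mean deviation of that list from the day 10 mean was -0.65, 0.18 and -0.28 in day 15 replicates 1, 2 and 3. The day 10 livers themselves deviated by -0.27, 0.10 and 0.17.

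Drug metabolism had 6 of 44 members (13.6%) lower without overlap, against 7.17% of all genes. Fmo1, a flavin monooxygenase, was at 7.73, 8.80 and 9.16 and then at 5.78, 8.48 and 6.85, and Nr1i3, the receptor that senses many drugs, at 6.75, 7.66 and 8.71 and then at 6.36, 6.56 and 6.89, both with overlap. The bile acid list had 1 of 23 members higher and 1 lower without overlap (4.35% each), below the shares over all genes. Cyp8b1, which sets the share of cholic acid among bile acids, was at 10.63, 10.60 and 10.04 and then at 6.05, 10.94 and 7.72. Replicates 1 and 3 of Cyp8b1 were thus several units down and replicate 2 was the highest of all 6. Abcg5, a sterol exporter, was at 6.25, 6.44 and 6.62 and then at 5.74, 6.20 and 5.46, below day 10 throughout.

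**Figure D5:**
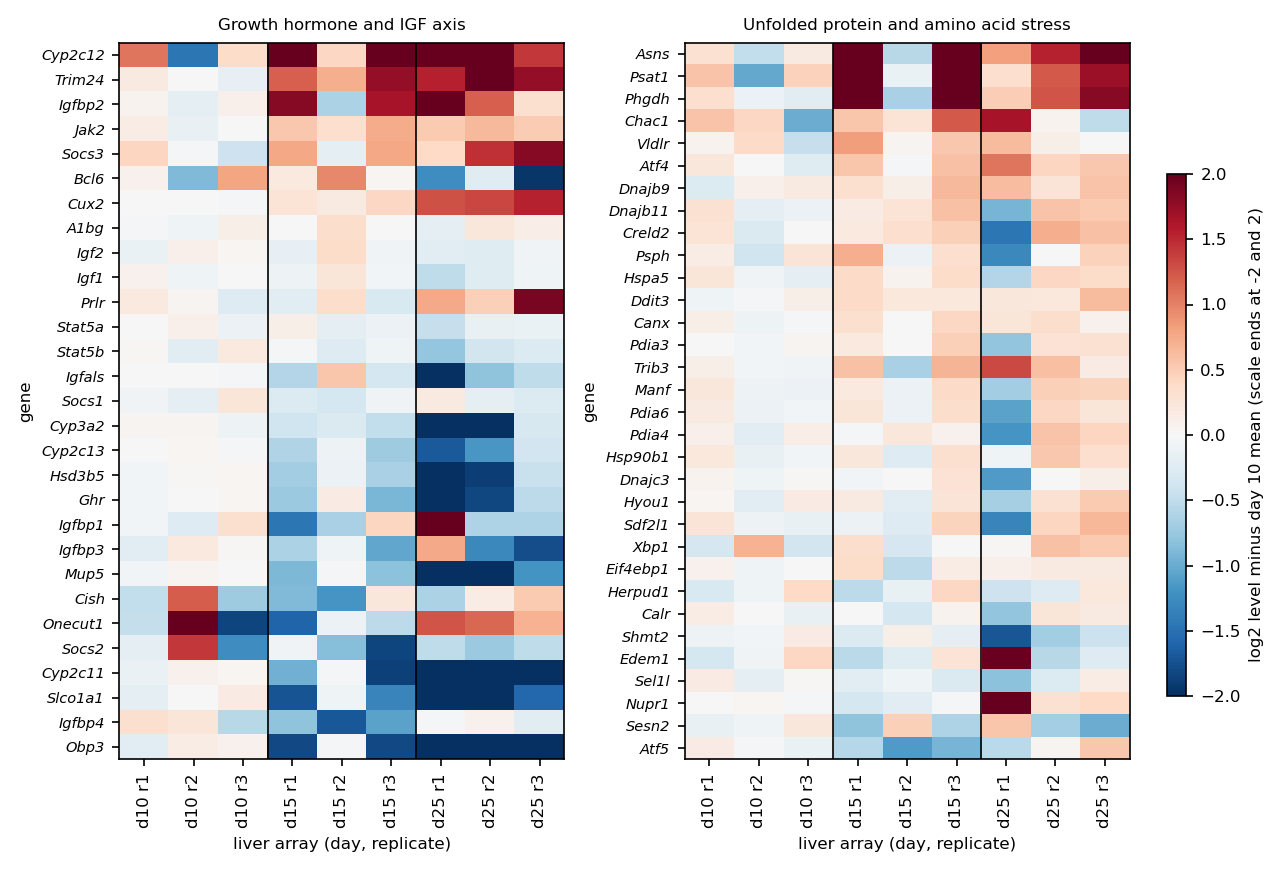
Log2 level minus the day 10 mean (colour, from -2 to 2) of the 29 growth hormone genes (left) and the 32 unfolded protein and amino acid stress genes (right) in the 9 livers (columns). Columns of day 15 replicates 1 and 3 differ from day 10 in Cyp2c12, Obp3, Asns and Phgdh, while replicate 2 stays near it; Trim24 is higher in all 3.

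Lcn2, lipocalin 2, an iron-trapping acute phase protein that neutrophils also carry, was at 5.10, 5.52 and 5.44 at day 10, at 8.13, 5.02 and 9.99 at day 15 and at 9.26 to 10.80 at day 25. Replicate 3 lay within the range of the day 25 livers and replicate 1 between the day 10 and day 25 ranges. Replicate 2 was below every day 10 liver. Acute phase genes as a list had 4 of 23 members (17.4%) higher without overlap, against 11% of all genes, and a median of 0.14, which was 0.27 without day 15 replicate 2. S100a9, a calprotectin chain of neutrophils, was at 9.36, 8.31 and 7.72 and then at 9.16, 7.99 and 10.16, overlapping, against 11.39 to 12.29 at day 25. Il1r2, the decoy receptor of interleukin 1, was at 5.08, 5.16 and 4.98, then at 5.67, 5.37 and 6.19, and rose by 3.00 by day 25 (adjusted p = 0.00038, limma).

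The next 4 genes were chosen after their values were seen and are single values, not a tested group. Ltb, which encodes lymphotoxin beta, was at 6.42, 6.37 and 6.53 and then at 10.77, 6.11 and 10.86. Nfkb2 was at 6.80, 6.88 and 6.97 and then at 8.28, 6.87 and 8.81, Relb, which encodes its NF-kB partner, at 6.23, 6.86 and 6.97 and then at 7.74, 7.09 and 8.10, and Tnfaip3, an inhibitor of NF-kB signalling, at 6.73, 7.31 and 7.26 and then at 8.79, 7.84 and 9.86. Relb and Tnfaip3 did not overlap between the days, with adjusted p-values of 0.157 and 0.179 (limma), while in Ltb and Nfkb2 replicate 2 lay below or within the range of day 10. Without replicate 2 the differences were 4.37 for Ltb, 2.22 for Tnfaip3, 1.67 for Nfkb2 and 1.23 for Relb. Since the genes were chosen with their values known, these differences are no separate test.

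Over 32 unfolded protein and amino acid stress genes 1 was higher without overlap (3.12%, against 11% of all genes) and 2 were lower (6.25%, against 7.17%), so the list did not exceed the shares over all genes. Its median was 0.15, and 0.29 without day 15 replicate 2. Atf5, a transcription factor of amino acid stress, was at 12.01, 11.81 and 11.71 and then at 11.28, 10.71 and 10.91, lowest in replicate 2. Asns, asparagine synthetase, and Phgdh, which starts serine synthesis, both chosen after their values were seen, were at 6.74, 5.95 and 6.62 and then at 8.67, 5.88 and 9.03, and at 6.12, 5.68 and 5.58 and then at 7.89, 5.14 and 8.18. In both, replicates 1 and 3 were above and replicate 2 below every day 10 liver. Gpx2, a glutathione peroxidase of epithelia, was at 6.73, 5.82 and 6.10 and then at 8.74, 6.17 and 9.42. Egr1, an immediate early transcription factor, was higher in all, at 8.84, 7.99 and 7.16 and then at 10.20, 8.86 and 10.13 (difference 1.74, adjusted p = 0.18, limma).

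The interferon and clock lists lay nearer to the shares over all genes. Of 31 interferon response genes 5 (16.1%) were higher without overlap and 0 lower, against 11% and 7.17% of all genes, with a median of 0.17 that was 0.08 without day 15 replicate 2. Mx2, an antiviral GTPase, was at 7.32, 6.71 and 7.87 and then at 7.97, 7.91 and 8.12, and Usp18, which dampens the response, at 8.03, 7.87 and 8.08 and then at 8.29, 8.51 and 8.21. From day 15 to day 25 Mx2 fell by 1.49 and Usp18 fell by 1.32 (adjusted p = 0.019 and 0.017, limma). Of 20 clock genes 1, Rora, was higher without overlap and 0 were lower, with a median of 0.01 (-0.07 without day 15 replicate 2) and 0 at an unadjusted p under 0.05 (limma). Nr1d1, a clock repressor that swings strongly over the day, was at 7.38, 6.87 and 8.11 and then at 7.92, 7.28 and 6.09, and Npas2, a clock activator, at 7.80, 8.05 and 7.95 and then at 8.43, 7.98 and 8.17.

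Without day 15 replicate 2, 196 genes were called (limma, 1.38% of all genes), 151 (1.06%) higher and 45 (0.317%) lower, against 4 with it. Lcn2 then differed by 3.71 (adjusted p = 0.00449), Gpx2 by 2.86, Asns by 2.42, Phgdh by 2.24, Egr1 by 2.17, Tspan8 by 1.82 and Trim24 by 1.48. Fxyd5 differed by 1.40, Ier5 by 1.40, Sox4 by 1.33, S100a11 by 1.32, Hspa4l by 1.17, Krt18 by 1.09, Rps16 by 0.54 and Hsp90ab1 by 0.52. Among lower genes Nox4 differed by -2.06, Abcg5 by -0.84, Cyp8b1 by -3.54 (adjusted p = 0.0346), Fmo1 by -2.25 and Irs1 by -0.89. This leaves 2 livers at day 15, which are compared with 3 at day 10 through the spread pooled over all groups. Day 15 replicate 2 was singled out for lying near the day 10 livers in these same data. Leaving it out therefore tends to widen the differences, so these counts and values are no separate test.

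The tumours of the same 6 rats gave 0 called genes between the days (limma), with 350 (2.46%) at an unadjusted p under 0.05. A test of the difference between the liver's change and the tumour's change also called 0 genes, with 978 (6.88%) at an unadjusted p under 0.05. For Idh2 the liver's difference exceeded the tumour's by -0.77 (SE 0.18, adjusted p = 0.574, limma), and the tumour's own difference was -0.08. Between day 15 and day 25, 313 genes (2.2%) changed in the liver, 117 (0.823%) higher and 196 (1.38%) lower.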

How the data were processed

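The authors deposited log2 expression values of 21 arrays, made with RMA per the submitters' processing notes; RMA corrects background, normalises between arrays by quantiles and summarises the probes of a set, and no version is given in the sources used here. Array medians lay between 5.98 and 6.06, so overall RNA amount cannot be read from them, and the number of arrays limits the precision.

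Of 31099 probe sets, 20826 had 1 gene symbol, 436 had several and 9780 were unnamed; for each of 14217 genes the probe set of highest mean over the 21 arrays was kept. Symbols were updated by gene ID through RefSeq's GRCr8 table for 20758 probe sets. Group means of all 7 groups were fitted with limma 3.58.1 in R 4.3.3, which pools the spread of a gene over all arrays, with Benjamini-Hochberg adjustment across all 14217 genes. Up to 12 genes per direction were named, the called ones first and then those of smallest p, always with groups that do not overlap and no provisional name; from each list the 2 members of smallest p and the highest expressed could be named, and any growth hormone, clock or interferon gene. The 42 lists held 1046 entries, of which 931 were measured. The members and lists were chosen with earlier results of these data known. The alternatives were other normalisations, filters, priors, weights, blocks and leaving out each liver.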

Additional observations from a re-analysis of the deposited data

How the results depend on the processing

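The count of called genes in the liver comparison, 4, was 0 with only the 9 livers and 0 with only the 6 livers in the fit, 2 after quantile normalisation again, 3 with median centring and 3 with genes above the median level. It was 1 with the mean of a gene's probe sets, 2 with the trend and robust prior, 1 with rats as a random block and 1 gene when all probe sets were tested. Array weights, which gave day 15 replicate 2 a weight of 0.405 against 1.36 and 1.09, called 453. Leaving out each liver in turn gave 0 to 196, the 196 without day 15 replicate 2. The replicate block, on numbers that name different rats (correlations of deviations 0.347, 0.198 and 0.081), called 1, and the samples are not taken as paired. Idh2 kept its call under each of these settings except the liver-only fits and leaving out a liver other than day 15 replicate 2. The liver count from day 15 to day 25, 313, ran from 155 to 522 over left-out livers and from 267 to 317 otherwise, 291 with the replicate block. The tumour count was 0 to 1 and the count for the difference 0 to 38 over left-out arrays, the 38 without liver day 15 replicate 2. Small differences of uncalled genes changed sign: Alb was at 0.0107 with median centring and -0.0217 to 0.0087 over left-out livers, Srebf2 at 7e-04 with median centring, 0.0027 with array weights and -0.0727 to 0.0234 over left-out livers, Igf1 at -0.0786 with the mean of probe sets, -0.042 with array weights and -0.0726 to 0.0958 over left-out livers, and Rora at -0.0258 with the mean of probe sets. Over left-out livers Postn ran from -0.17 to 1.24 and Nr1d1 from -0.77 to 0.15. The cause of these changes was not tested.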
